A study of Homo sapiens with 6 samples.

Results

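Plasminogen activation and tissue factor signalling are represented here by 9 genes, PLAU, PLAT, PLAUR, SERPINE2, SERPINB2, F3, TFPI, TFPI2 and THBD. These genes were chosen by symbol for their part in pericellular proteolysis and clotting in invasive cells, with earlier results of these data known. All 9 were found among the 61155 symbols of the deposited gene table. Their RNA was measured in MDA-MB-231, a human line of triple-negative, mesenchymal-like breast cancer, in 3 libraries of cells with VASP knocked down and 3 control libraries. VASP is an actin regulator of the leading edge and of focal adhesions. The titles call the groups shVASP and plko, which name a short hairpin vector, whereas the characteristics name a VASP siRNA and a negative control siRNA, with harvest 48 hours after transient transfection with Lipofectamine 2000; the reagent cannot be settled from the labels. Both groups share the same line, and the medium of both held serum, insulin and nonessential amino acids.

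Cells turn the circulating zymogen plasminogen into plasmin with 2 activators, urokinase (PLAU) and tissue-type plasminogen activator (PLAT). Urokinase bound to its membrane receptor (PLAUR) concentrates plasmin formation at the cell surface, where plasmin degrades fibrin and matrix proteins, and serpins stop both activators by forming covalent complexes with them. Tissue factor (F3) starts clotting by binding factor VIIa, and the Kunitz-type inhibitor TFPI blocks that complex together with factor Xa. Thrombomodulin (THBD) binds thrombin and turns it towards activation of protein C. In breast cancer lines of this kind urokinase, its receptor and tissue factor are known for high expression and for a part in invasion.

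The letters TGANTCA, which AP-1 dimers of the FOS and JUN families recognise, were looked up in the promoter windows of the genes, because AP-1 is known to act on several of them. RefSeq windows on GRCh38.p14, from 250 bases before to 50 bases after an annotated start site, were held for 7 of the 9 genes. TGANTCA, which reads the same on both strands, lay in the windows of F3, PLAUR, TFPI2 and SERPINB2. Of all 27305 genes with a window, 9.37% had it. Since the letters were chosen for what is known of several of these genes, this comparison is a description. The stretches of 61 bases around TGANTCA are given in the direction of transcription, with these letters in capitals.
F3, chr1:94541949-94542009, minus strand: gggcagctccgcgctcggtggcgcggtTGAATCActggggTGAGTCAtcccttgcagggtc
PLAUR, chr19:43670322-43670382, minus strand: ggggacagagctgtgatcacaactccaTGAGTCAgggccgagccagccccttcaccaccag
TFPI2, chr7:93890807-93890867, minus strand: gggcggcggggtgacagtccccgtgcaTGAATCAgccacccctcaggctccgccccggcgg
SERPINB2, chr18:63887576-63887636, plus strand: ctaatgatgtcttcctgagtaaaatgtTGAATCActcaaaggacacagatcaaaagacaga

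F3 held 2 such words, which begin at -223 and -210 from the start site. The word began at -186 in PLAUR, at -87 in TFPI2 and at -102 in SERPINB2. Of these 4 genes F3 and PLAUR fell, TFPI2 did not pass the test, and SERPINB2 was almost silent. Among the genes whose windows lack the word, PLAU and TFPI fell and SERPINE2 rose. Of all genes tested 18.3% fell, and a link between the word and a fall was not tested. The call of PLAUR was lost in 8 of 12 alternative analyses. GGAATG, read by TEAD factors, was in none of the windows of the 7 genes on either strand, while 16.7% of all genes with a window had it. GGGCGG, read by Sp1, lay on either strand in windows of 4 of the 7 genes and of 48.3% of all genes with a window. It occurred 4 times in F3, 3 times in the downstream window of PLAU, 2 times in TFPI2, and 1 and 2 times in the windows of SERPINE2, but not in TFPI, SERPINB2 or PLAUR. No such match shows that a factor binds there.

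The libraries held 28997712 to 30055503 counts after knockdown and 28856610 to 29897430 in control, so the floor of 3 counts lay at 0.0998 to 0.104 CPM. VASP itself stood at 12.6 ± 0.354 CPM in knockdown libraries and 164 ± 9.03 CPM in control libraries (SD, n = 3 each), a 12.9-fold decrease (edgeR adjusted p = 8.3e-24, log2 fold change -3.69 with an SE of 0.06). Of 16633 genes tested, 37.2% passed the threshold (adjusted p under 0.05), 18.9% upward and 18.3% downward, and the groups did not overlap in 47.6%. Against a null fold change of 1.2, 5.73% passed. Fold change moved with GC content over the tested genes: the median log2 fold change was 0.18 in the lowest decile of GC content and -0.23 in the highest. Fold changes with a correction for GC content and length are therefore given beside those of the 8 tested genes of the set, from a fit in which 29.7% of 16371 genes passed. Of these genes 2859 rose and 2000 fell. Genes that mark this line (VIM, CD44, AXL and CAV1) summed to 4342 to 4396 CPM in knockdown and 4419 to 4514 CPM in control libraries, while 6 genes known to be low in it summed to 101 to 109 CPM in knockdown and 112 to 117 CPM in control libraries. Of those 6, PGR and CDH1 stayed at or below 0.103 CPM in every library, ESR1 and GATA3 at or below 0.827 CPM, and EPCAM averaged 5.42 CPM after knockdown and 6.41 CPM in control. ERBB2 made up most of that sum and fell, to 97.7 CPM after knockdown, against 106.9 CPM in control (edgeR adjusted p = 0.035); its part in the results was not tested. In bulk RNA, fewer expressing cells and less RNA per cell cannot be told apart. The labels do not state whether each library is a culture of its own, and the p-values therefore speak only of library-to-library spread, which may be technical.

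After VASP knockdown both plasminogen activators and tissue factor were lower, while SERPINE2, a serpin that inhibits the activators, was higher. PLAT fell 1.27-fold, PLAU 1.22-fold, F3 1.199-fold, TFPI 1.17-fold and PLAUR 1.105-fold, and SERPINE2 rose 1.23-fold. TFPI2 and THBD did not pass the test, and SERPINB2 was too low to be tested. So 5 of the 8 tested genes fell and 1 rose, beside the shares of 18.3% and 18.9% for all genes tested, and their median log2 fold change was -0.18, beside -0.01 for all. With a filter of 1 CPM in 3 libraries, 6055 of 13733 genes were called in either direction. Because the genes were chosen with earlier results of these data known, these counts are a description. Knockdown and control libraries did not overlap in 7 of the 8, beside 47.6% of all genes. Every one of these changes was small: no gene of the 8 passed edgeR's test against a null fold change of 1.2, which 5.73% of all genes passed, and 1 did at an unadjusted p under 0.05. DESeq2, which tests against no change, called 1 up and 4 down.

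**Figure D1:**
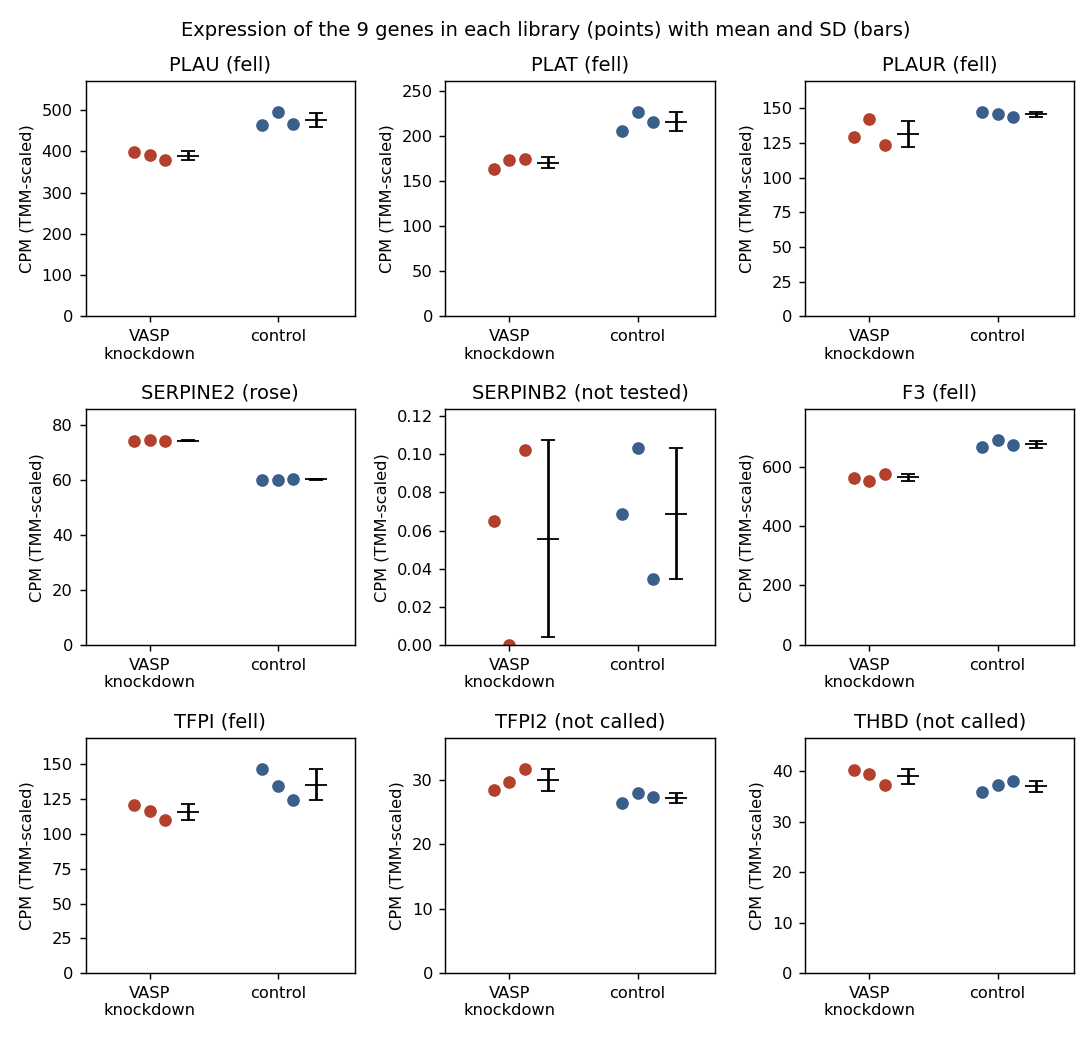
Expression of each of the 9 genes in CPM scaled by TMM, with the 3 VASP knockdown libraries left of the 3 control libraries; points are libraries and bars give mean ± SD. Knockdown and control libraries do not overlap for PLAU, PLAT, PLAUR, SERPINE2, F3, TFPI and TFPI2, they overlap for THBD, and SERPINB2 stays near 0.1 CPM or below.

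Urokinase, encoded by PLAU (ENSG00000122861, on the plus strand of GRCh38 chromosome 10 from 73909177 to 73917496, with 2949 exonic bases), was the more abundant of the activators. Its RNA stood at 399.5, 391 and 379 CPM in the knockdown libraries, against 464, 496 and 467 CPM in the control libraries. All 3 knockdown libraries lay below all 3 controls. The means were 389.7 ± 10.5 CPM after knockdown and 476 ± 17.7 CPM in control (SD, n = 3 each), a log2 fold change of -0.29 (SE 0.05, edgeR adjusted p = 6.5e-05). The log2 fold change was -0.21 (SE 0.04, adjusted p = 0.0013) with the GC and length correction. PLAU shares exon sequence with C10orf55, and shared fragments were counted for neither. Outside the shared part C10orf55 drew 238 counts over all 6 libraries, which does not show how many PLAU fragments were lost.

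Tissue-type plasminogen activator, which is best known for dissolving fibrin clots, had the largest change of the 8. PLAT (ENSG00000104368, chromosome 8, 42174718 to 42207676, minus strand, 7085 bases of merged exons) had 163, 174 and 175 CPM in the knockdown libraries, against 205, 227 and 216 CPM in the control libraries. No knockdown library reached the lowest control. Means were 171 ± 6.37 CPM after knockdown and 216 ± 10.8 CPM in control (SD, n = 3 each), with a log2 fold change of -0.34 (SE 0.05, edgeR adjusted p = 1.1e-05). The GC and length correction left it at -0.35 (SE 0.05, adjusted p = 2.2e-05). In absolute log2 fold change, 23.0% of all genes tested changed more than PLAT.

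The urokinase receptor changed least among the genes that passed. PLAUR (ENSG00000011422, chromosome 19, 43646095 to 43670547, minus strand, 4457 bases of merged exons) had 129, 142 and 124 CPM after knockdown, against 147, 146 and 143 CPM in control. The highest knockdown library lay just under the lowest control. The means were 132 ± 9.35 CPM and 145 ± 1.92 CPM (SD, n = 3 each), in the same order, and the log2 fold change was -0.14 (SE 0.05, edgeR adjusted p = 0.029). The call did not hold with the GC and length correction (log2 fold change -0.05, adjusted p = 0.43), by DESeq2 (adjusted p = 0.058), without a filter on low counts (adjusted p = 0.080), or without knockdown library 1 (adjusted p = 0.11), knockdown library 3 (adjusted p = 0.21), control library 1 (adjusted p = 0.074) or control library 2 (adjusted p = 0.081). Over all alternatives its adjusted p ran from 0.010 to 1.00. PLAUR lies in decile 8 of GC content, whose median log2 fold change was -0.09.

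SERPINE2 encodes protease nexin-1, a cell surface and matrix-bound serpin that inhibits thrombin, urokinase and tissue-type plasminogen activator. It was the gene of the set that rose. SERPINE2 (ENSG00000135919, chromosome 2, 223975045 to 224039318, minus strand, 8957 bases of merged exons) had 74.3, 74.5 and 74.3 CPM in the knockdown libraries, against 60.1, 60.2 and 60.4 CPM in the control libraries. Within each group the libraries were nearly level, with 74.3 ± 0.110 CPM after knockdown and 60.2 ± 0.156 CPM in control (SD, n = 3 each). The libraries held 2184 to 2281 counts of SERPINE2 after knockdown and 1747 to 1757 in control. At such counts these SDs lie below counting error, so they understate the uncertainty of the level. The log2 fold change was 0.30 (SE 0.05, edgeR adjusted p = 3.5e-05), and 0.22 (SE 0.05, adjusted p = 0.0011) with the GC and length correction. Genes of its GC decile had a median log2 fold change of 0.11.

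SERPINB2, the other serpin, encodes plasminogen activator inhibitor 2, which is abundant in monocytes and placenta. It had 2, 0 and 3 counts in the knockdown libraries and 2, 3 and 1 counts in the control libraries, 5 and 6 counts in all. All libraries were at or below the floor of 3 counts, so no difference was detectable at this depth and no fold is given.

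Ratios between 2 genes within a library do not depend on library size or scaling, but these were not corrected for GC content. Their level does depend on the merged exon lengths, which cancel in the log2 difference between the groups. The ratio of PLAU to SERPINE2, in counts per base of merged exon, averaged 15.9 in knockdown libraries and 24.0 in control libraries. On the log2 scale it was 4.03, 3.99 and 3.95 after knockdown, against 4.55, 4.65 and 4.55 in control, a difference of -0.59. The 2 groups did not overlap. The ratio of PLAT to SERPINE2 averaged 2.90 after knockdown and 4.53 in control, a log2 difference of -0.64, also without overlap. With the GC and length correction the log2 fold change was -0.21 for PLAU, -0.35 for PLAT and 0.22 for SERPINE2. Without it they were -0.29, -0.34 and 0.30, so part of the PLAU to SERPINE2 difference moves with GC content and length. PLAU to PLAUR, activator to receptor, moved less, with log2 ratios of 2.22, 2.06 and 2.21 after knockdown, against 2.25, 2.36 and 2.30 in control. These ratios are descriptions of genes chosen with results known and were not tested.

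**Figure D2:**
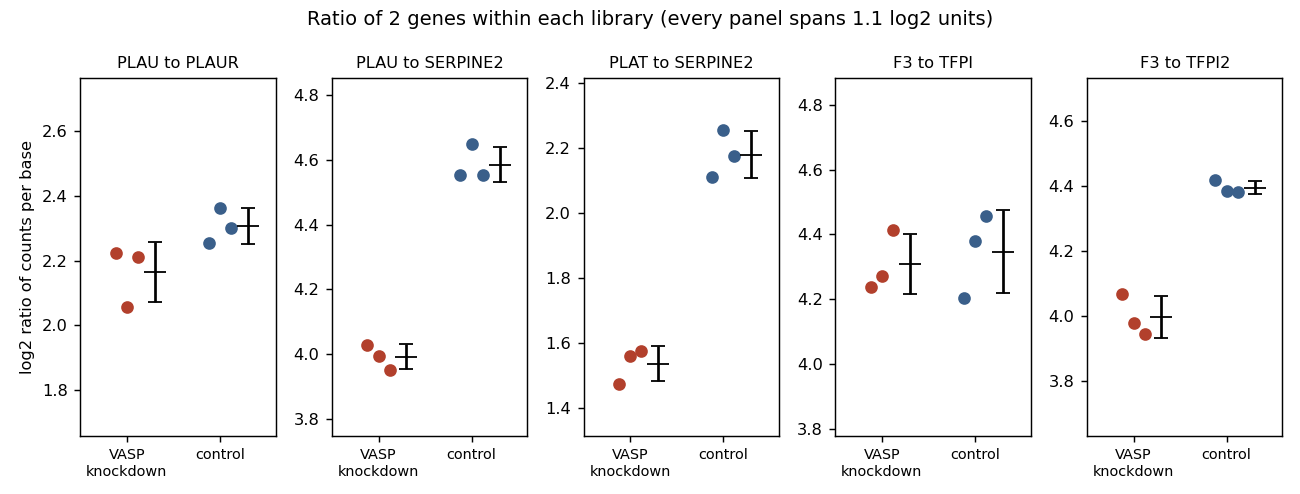
The log2 ratio of counts per base of merged exon between 2 genes within each library, with VASP knockdown left of control, points for libraries and bars for mean ± SD (n = 3). The ratios of PLAU and of PLAT to SERPINE2 are lower in every knockdown library by a mean of 0.59 and 0.64, and the ratio of F3 to TFPI overlaps between the groups. No ratio is corrected for GC content.

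Tissue factor, the membrane receptor for factor VIIa, had the highest level of the 9 genes. F3 (ENSG00000117525, chromosome 1, 94529173 to 94541759, minus strand, 2886 bases of merged exons) had 562, 553 and 576 CPM in the knockdown libraries, against 666, 689 and 672 CPM in the control libraries. The gap between the groups was far wider than the spread within them. Means were 563 ± 11.8 CPM after knockdown and 676 ± 11.9 CPM in control (SD, n = 3 each), with a log2 fold change of -0.26 (SE 0.05, edgeR adjusted p = 0.00016). It was -0.30 (SE 0.04, adjusted p = 4.2e-05) with the GC and length correction, although genes of its GC decile had a median log2 fold change of 0.06.

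F3 was the one gene of the 9 with the letters GTCGTC in the 3′ UTR of its longest coding transcript, a word that earlier results of these same libraries had singled out. The site is shown because its presence moves with a fall over all genes. It begins at base 300 of the 1235-base 3′ UTR (GENCODE 29), with the word in capitals.
F3, chromosome 1: aggagtaaccagGTCGTCcaagcaaaaaca

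Of 685 tested genes with this word in the 3′ UTR, 40.9% fell, against 28.1% of 1863 genes that hold it only outside the 3′ UTR and 17.6% of 10203 genes that lack it. With the GC and length correction the shares were 33.7%, 18.6% and 10.7%, in the same order. What part this word has in the fall of F3 was not tested. Since the word was picked on these libraries, the shares are a description.

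TFPI, the main inhibitor of the tissue factor and factor VIIa complex, fell along with F3. TFPI (ENSG00000003436, chromosome 2, 187464230 to 187565760, minus strand, 11714 bases of merged exons) had 121, 116 and 109.7 CPM after knockdown, against 147, 134 and 124 CPM in control. The control libraries were spread widely, and the lowest of them lay only a little above the highest knockdown library. The means were 115 ± 5.51 CPM after knockdown and 135 ± 11.2 CPM in control (SD, n = 3 each), a log2 fold change of -0.23 (SE 0.06, edgeR adjusted p = 0.0029). With the GC and length correction it was -0.30 (SE 0.05, adjusted p = 0.00056). Exons of TFPI overlap AC007319.1, which had 231 counts over all libraries, and shared fragments were counted for neither.

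The log2 ratio of F3 to TFPI was 4.31 ± 0.0923 in knockdown and 4.35 ± 0.129 in control libraries (SD, n = 3 each). The libraries overlapped, so the difference of -0.04 was smaller than the spread between libraries.

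TFPI2, a related Kunitz-type protein that is secreted into the matrix and inhibits plasmin and trypsin, stood at 28.4, 29.7 and 31.7 CPM after knockdown, against 26.4, 27.9 and 27.3 CPM in control. TFPI2 (ENSG00000105825, chromosome 7, 93885396 to 93890753, minus strand) had higher values in all 3 knockdown libraries, but the difference did not pass the test, with a log2 fold change of 0.14 (SE 0.06, edgeR adjusted p = 0.086) and of 0.04 (SE 0.06, adjusted p = 0.65) with the GC and length correction. Over all alternatives its adjusted p ran from 0.062 to 1.00. The log2 ratio of F3 to TFPI2 was 3.997 ± 0.0636 after knockdown and 4.395 ± 0.0208 in control (SD, n = 3 each), without overlap.

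Thrombomodulin, known as an anticoagulant receptor of endothelium and of some epithelia, had overlapping groups. THBD (ENSG00000178726, chromosome 20, 23045633 to 23049741, minus strand, 4109 bases of merged exons) had 40.3, 39.4 and 37.3 CPM in knockdown libraries, against 35.9, 37.2 and 38.1 CPM in control libraries. The log2 fold change was 0.07 (SE 0.06, edgeR adjusted p = 0.33). THBD passed the test in a single alternative, the GC and length correction, where it rose by 0.16 on the log2 scale (SE 0.05, adjusted p = 0.028), and its adjusted p elsewhere ran from 0.24 to 1.00. With that correction 2 of the 8 genes rose, SERPINE2 and THBD, and 4 fell, PLAU, PLAT, F3 and TFPI. Of all 16371 genes in that fit 2859 rose and 2000 fell, 29.7% in either direction.

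**Figure D3:**
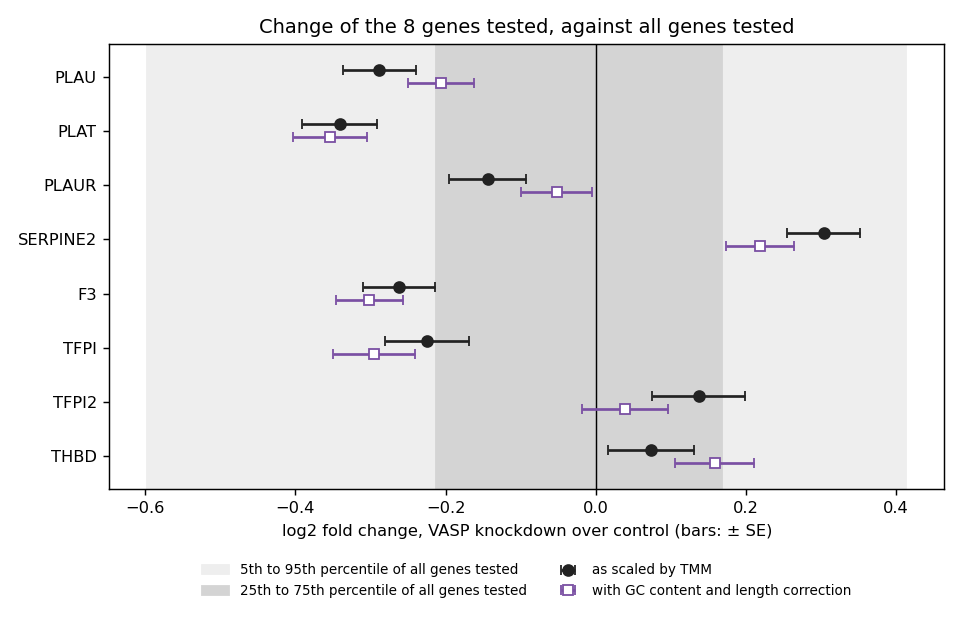
Log2 fold change (VASP knockdown over control) ± SE of the 8 tested genes, as scaled by TMM (filled circles) and with the GC content and length correction (open squares), over bands for the central share of all genes tested. PLAU, PLAT, F3 and TFPI stay below 0 and SERPINE2 above 0 in both fits, while PLAUR moves to -0.05 and THBD to 0.16 with the correction.

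THBD, TFPI and PLAT are also products of endothelial cells, so endothelial markers were read beside them. The 5 endothelial markers summed to 204 to 207 CPM in knockdown and 198 to 212 CPM in control libraries, nearly all of it from ESAM, a junctional adhesion molecule. The defining markers CDH5, VWF and TEK were near 0, at or below 0.241 CPM in every library. PECAM1 was at 2.05 CPM after knockdown and 2.82 CPM in control (edgeR adjusted p = 0.026), and its part in the results was not tested. The 5 fibroblast markers summed to 6.60 to 7.20 CPM in knockdown and 6.15 to 7.44 CPM in control libraries, with DCN and LUM at 0. The 5 leukocyte markers summed to at most 3.16 CPM in knockdown and 3.07 CPM in control libraries, and the 4 platelet markers to at most 5.44 CPM in knockdown and 6.06 CPM in control libraries.

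Levels between genes were set side by side per length, in RPKM over merged exons, which understates genes such as TFPI whose merged exons are much longer than any one transcript. F3 led with 195 ± 4.09 RPKM in knockdown and 234 ± 4.12 RPKM in control libraries (SD, n = 3 each). PLAU followed with 132 ± 3.56 RPKM after knockdown and 161 ± 5.995 RPKM in control. PLAUR had 29.5 ± 2.10 RPKM after knockdown and 32.6 ± 0.431 RPKM in control, and PLAT had 24.1 ± 0.899 RPKM after knockdown and 30.5 ± 1.53 RPKM in control. In RPKM PLAUR lay above PLAT without overlap in both groups. The margin was narrow in the control libraries, where the lowest PLAUR value was 32.17 RPKM and the highest PLAT value 32.04 RPKM. This order rests on the merged exon lengths, 4457 bases for PLAUR and 7085 bases for PLAT. In CPM PLAT was the higher, at 171 against 132 after knockdown and 216 against 145 in control. TFPI2, TFPI and THBD formed a lower tier, at 12.2 ± 0.686, 9.86 ± 0.470 and 9.49 ± 0.372 RPKM after knockdown, against 11.1 ± 0.318, 11.5 ± 0.952 and 9.02 ± 0.267 RPKM in control. SERPINE2 was lowest of the 8 per length in both groups, at 8.30 ± 0.0122 RPKM after knockdown and 6.73 ± 0.0174 RPKM in control. Its merged exons, at 8957 bases, are longer than those of THBD (4109 bases) and TFPI2 (2444 bases). In CPM SERPINE2 lay above both, at 74.3 after knockdown, against 39.0 for THBD and 29.9 for TFPI2. In control libraries SERPINE2 stood at 60.2 CPM, against 37.1 CPM for THBD and 27.2 CPM for TFPI2. TFPI2 and TFPI overlapped in the control libraries, and TFPI and THBD overlapped in the knockdown libraries.

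**Figure D4:**
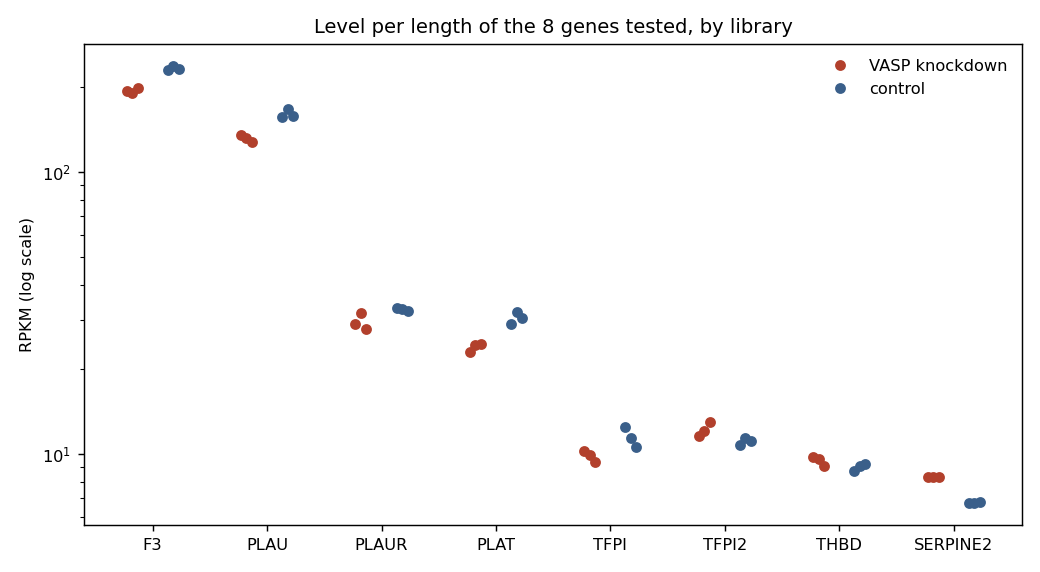
Level of the 8 tested genes in RPKM over merged exons on a log axis, in order of their control mean, with VASP knockdown left of control and points for libraries. F3 and PLAU stand at or above 128 RPKM in all libraries, PLAUR and PLAT between 23.0 and 33.0 RPKM, and the other 4 genes at or below 12.97 RPKM.

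The wider pathway was read from 5 lists of further genes, which were described by counts and not tested as sets. Among 26 tested genes of plasminogen activation and of partners of the urokinase receptor, 10 fell and 4 rose, beside 18.3% and 18.9% of all genes tested, and the median log2 fold change was -0.05. ITGB5, an integrin subunit that pairs with alpha V to bind vitronectin, fell 1.41-fold to 91.1 ± 5.73 CPM in knockdown libraries, against 128 ± 11.1 CPM in control libraries (n = 3 each, log2 fold change -0.49, SE 0.06, edgeR adjusted p = 3.1e-06). ITGA3, an integrin subunit for laminin, fell 1.249-fold (log2 fold change -0.32, -0.15 with the GC and length correction). MET, the receptor of hepatocyte growth factor, a ligand that proteases of this group can activate, rose 1.30-fold to 220.0 ± 2.02 CPM after knockdown, against 169 ± 12.4 CPM in control (n = 3 each, log2 fold change 0.38, SE 0.05, edgeR adjusted p = 4.7e-06). SERPINB8 rose 1.29-fold. After correction for GC content and length, 6 genes of the list fell and 6 rose. Of all 16371 genes in that fit 2000 fell and 2859 rose, 29.7% in either direction.

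Cell surface receptors of plasminogen in this list did not share a direction. Annexin A2 and its partner S100A10, which together bind plasminogen and tissue-type plasminogen activator, rose, with a log2 fold change of 0.18 for ANXA2 (SE 0.05, edgeR adjusted p = 0.0095) and 0.21 for S100A10 (SE 0.06, adjusted p = 0.0068). ENO1, a glycolytic enzyme that also binds plasminogen at the cell surface, fell by 0.29 on the log2 scale (SE 0.06, adjusted p = 0.00039). PLGRKT, a membrane receptor of plasminogen, had a log2 fold change of 0.10 (SE 0.08) and did not pass (adjusted p = 0.38). With the GC and length correction the log2 fold change was 0.14 for ANXA2, 0.33 for S100A10, -0.22 for ENO1 and 0.02 for PLGRKT, and the first 3 still passed. These 4 genes were named after their values were seen, and ANXA2 and ENO1 have processed pseudogenes that can take some of their fragments.

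Of 19 tested genes of coagulation, of tissue factor partners and of the protein C pathway, 7 fell and 2 rose, beside 18.3% and 18.9% of all genes tested, and the median log2 fold change was 0.01. GAS6, a vitamin K-dependent ligand of the AXL receptor, fell 1.52-fold, to 197 ± 13.6 CPM in knockdown libraries, against 299 ± 13.6 CPM in control libraries (n = 3 each, log2 fold change -0.60, SE 0.05, edgeR adjusted p = 8.7e-09). TGM2, a transglutaminase that crosslinks matrix proteins, fell 1.46-fold. F2RL3, the thrombin receptor PAR4, fell 1.77-fold from a low level, to 2.35 ± 0.251 CPM after knockdown, against 4.17 ± 0.405 CPM in control (n = 3 each). GGCX, the carboxylase that vitamin K-dependent clotting factors need, fell 1.19-fold. With the GC and length correction 6 of the list fell and 2 rose, and GAS6 stood at a log2 fold change of -0.43. Of all 16371 genes in that fit 2000 fell and 2859 rose, 29.7% in either direction.

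Of 10 other serpins tested, SERPINB8 rose and none fell by edgeR, also at an unadjusted p under 0.05 and by DESeq2, beside 37.2% of all genes called in either direction. The median log2 fold change was -0.0029. Some of the serpins that did not pass were measured with a wide error, such as SERPINB7 at -0.62 (SE 0.36) and SERPINA1 at 0.31 (SE 0.33), both named after their values were seen. SERPINB8 and SERPINH1 passed with the GC and length correction. Of 10 tested inhibitors of the Kunitz, Kazal, WAP and cystatin types, SPINT2 and APLP2 fell by edgeR, beside 18.3% of all genes tested. At an unadjusted p under 0.05, 4 of the list fell, and DESeq2 called 2 down. None rose by edgeR, also at an unadjusted p under 0.05 and by DESeq2, beside 18.9% of all genes tested. The median log2 fold change of these inhibitors was -0.12. SPINT2, an inhibitor of matriptase and of the activator of hepatocyte growth factor, fell 1.35-fold to 72.4 ± 3.56 CPM after knockdown, against 97.8 ± 7.64 CPM in control (n = 3 each, log2 fold change -0.43, SE 0.06, edgeR adjusted p = 3.1e-06). APLP2, a relative of the amyloid precursor protein with a Kunitz domain, fell 1.12-fold, and its call did not hold with the GC and length correction (adjusted p = 0.057) or without knockdown library 1 (0.063), knockdown library 3 (0.15) or control library 1 (0.12); its adjusted p over all alternatives ran from 0.014 to 1.00.

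Among 22 AP-1, ETS, NF-kB, KLF and TEAD regulators, families known to act on promoters of this pathway, 5 fell and 4 rose, shares near the 18.3% and 18.9% of all genes tested, and the median log2 fold change was -0.02. JUN, the AP-1 subunit, fell 1.41-fold, to 143 ± 4.07 CPM in knockdown libraries, against 202 ± 9.26 CPM in control libraries (n = 3 each, log2 fold change -0.50, SE 0.05, edgeR adjusted p = 4.4e-08). EGR1 fell 1.21-fold and JUNB 1.203-fold, and the call of JUNB was lost with the GC and length correction (log2 fold change -0.02, adjusted p = 0.78; over all alternatives 3.0e-06 to 0.79). FOSL1, the AP-1 partner FRA-1, rose 1.17-fold, to 817 ± 42.7 CPM after knockdown, against 696 ± 24.3 CPM in control (n = 3 each, log2 fold change 0.23, SE 0.05, edgeR adjusted p = 0.0012). After correction for GC content and length the log2 fold change was 0.39 for FOSL1 and -0.18 for EGR1, where it was -0.27 without it. In that fit 3 of the list fell and 6 rose, where 2000 of all 16371 genes fell and 2859 rose, 29.7% in either direction.

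**Figure D5:**
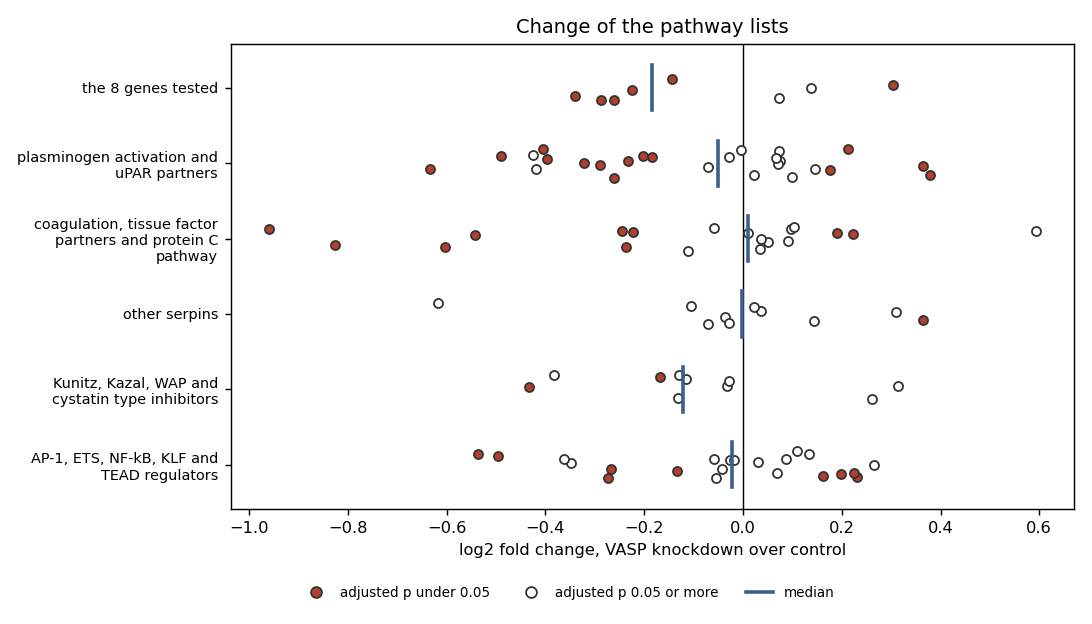
Log2 fold change (VASP knockdown over control) of the 8 tested genes and of 5 lists of further pathway genes; filled points have an edgeR adjusted p under 0.05 and lines mark medians. The 8 genes have a median of -0.18, and the medians of the lists run from -0.12 to 0.01.

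The tested genes whose profile over the 6 libraries was most like that of SERPINE2, by Euclidean distance of centred log2 CPM, were SOCS6 (distance 0.031), HPF1 (0.034) and PAIP2 (0.039), out of 12338 compared. For PLAT they were PCED1A (0.053), PPP1R12C (0.060) and TMEM203 (0.064). SOCS6, HPF1 and PAIP2 had log2 fold changes of 0.29, 0.30 and 0.32, beside 0.30 for SERPINE2. PCED1A, PPP1R12C and TMEM203 had -0.38, -0.35 and -0.30, beside -0.34 for PLAT. In 2 groups of 3 libraries a small distance mostly reflects a like fold change and little spread. Shared regulation was not tested.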

How the data were processed

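RNA was sequenced from 3 VASP knockdown and 3 control libraries of MDA-MB-231 cells. The authors deposited raw counts of fragments per gene symbol, counted per the file headers by featureCounts 1.6.4 as read pairs over GENCODE 32 exons on GRCh38, with no strand, multi-mapping or multi-overlap option, so shared fragments are not counted and strand is ignored. Trim Galore 0.6.4, STAR 2.7.1a and hg38 are named in the submitters' processing notes. Control columns show the group but not which control sample, and are numbered by table order as names only. No library repeated another: chi-square over its degrees of freedom was 5.11 to 8.67 for pairs within a group and 19.3 to 25.3 across groups.

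Counts were filtered with filterByExpr, scaled by TMM and put through edgeR 4.0.16 (R 4.3.3), using its quasi-likelihood F test on a model of group alone and Benjamini-Hochberg adjustment over 16633 genes. The SE is the log2 fold change divided by the square root of F. A spline with 5 degrees of freedom in GC content (GENCODE 29, longest transcript, 98.4% of tested genes) and in merged exon length gave the correction. The other alternatives were DESeq2 1.42.0, relative log expression scaling, 2 other filters, a null fold change of 1.2 and leaving out each library. The edgeR and DESeq2 steps were tested on simulated data. The genes and lists were chosen with earlier results of these data known. Named were all 9 genes, VASP, up to 4 genes a list with the smallest p past the threshold, and the 3 profiles nearest to the top riser and top faller; exceptions are marked. Floors cover counting error only.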

Additional observations from a re-analysis of the deposited data

How the results depend on the processing

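Over 96 results of the 8 tested genes under 12 alternatives, 82 kept their direction and their side of the threshold, 13 lost the call, 1 gained it and none turned. Of the losses 8 were of PLAUR, and the other 5 (PLAU, PLAT, SERPINE2, F3 and TFPI) came with the null fold change of 1.2, whose construction asks for more. Against that null 953 genes passed in all, 0 of the 8 (1 at an unadjusted p under 0.05), and of the lists 1 gene of plasminogen activation, 4 of coagulation, 0 of other serpins (1 unadjusted), 1 inhibitor of the Kunitz and related types and 1 regulator. Leaving out single libraries gave 4481 (without control library 2) to 6399 genes and 5 to 6 of the 8, and 1 to 4 inhibitors of the Kunitz and related types: 1 without knockdown library 1, knockdown library 3 or control library 1, and 4 without control library 3. With the GC and length correction 2 other serpins and 1 such inhibitor passed; the cause was not tested. The log2 difference in the F3 to TFPI ratio, -0.04, ran from -0.11 to 0.02 and turned to 0.0158 without control library 3. No paired analysis was possible because the control columns carry no replicate number of a control sample. No ratio to SERPINB2 was averaged, since 1 library had a count of 0. Depth limits SERPINB2.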

Other observations

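The downstream one of the 2 RefSeq promoter windows of SERPINE2 (GRCh38.p14, chr2:224031429-224031728, minus strand) holds the letters CCAAT 7 times over both strands, shown in capitals as CCAAT or, for the other strand, as ATTGG.
SERPINE2, downstream window: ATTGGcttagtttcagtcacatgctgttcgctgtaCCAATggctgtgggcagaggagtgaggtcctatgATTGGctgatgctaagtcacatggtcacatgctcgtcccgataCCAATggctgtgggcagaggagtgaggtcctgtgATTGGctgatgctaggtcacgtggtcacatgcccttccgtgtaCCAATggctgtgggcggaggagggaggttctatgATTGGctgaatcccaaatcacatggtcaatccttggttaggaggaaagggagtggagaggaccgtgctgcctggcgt

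Of all 35116 windows, 8 held these letters 7 times or more, a limit chosen after this window was seen. The other SERPINE2 window held them 0 times, and counts per gene do not show which start site was used in these cells.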
